A study of Mus musculus with 9 samples.

Results

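The genes described are 31 mouse genes of B cell identity and B cell receptor signalling, measured in spleens of mice with and without Graves' disease. They were taken from a fixed list of symbols by matching the accession of each array probe, with the older symbol Faim3 counted as Fcmr. All 31 were on the array, among 32451 genes or accessions, and 39 of its 39429 probes belonged to them. The study, on selenium intake and the risk and course of Graves' disease, used spleens of female BALB/c mice in 3 groups of 3 arrays. The normal Se GD group had Graves' disease (GD) and a normal dietary selenium supply. The low Se GD group had Graves' disease and a low selenium supply. The low Se non-GD group had no Graves' disease and the same low supply. No group here combined a normal supply with no disease, so that normal Se GD and low Se non-GD differ in both factors at once. The labels leave out how the disease was induced, what mice without it received and their ages. They also do not say that each replicate was a separate mouse, so p-values rest on a spread among arrays that may be technical.

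B cells recognise antigen through a surface immunoglobulin that is held by the signalling chains Cd79a and Cd79b. When antigen binds, kinases such as Lyn, Blk and Syk pass the signal through the adaptor Blnk to Btk and Plcg2, while surface inhibitors such as Cd22 and Cd72 dampen it, and the transcription factors Ebf1 and Pax5 keep the cell a B cell. The spleen holds large numbers of B cells in its follicles and marginal zones. In Graves' disease, antibodies made by the B lineage stimulate the receptor for thyrotropin on the thyroid.

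Values are log2 probe signals relative to the 75th percentile of the same array, called scaled log2 signal here, so that 0 is the array's 75th percentile. Levels of different genes come from different probes and are not set against each other. The probe used for each of the 31 genes was well above background on 9 of 9 arrays. All 31 were among the 26325 genes tested. Spleen is a mixture of cells, and in bulk RNA fewer B cells and less RNA per B cell cannot be told apart.

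Several arrays stood apart. Normal Se GD replicate 3, the sole array of its scan, had 58.4% of spots well above background, against 72.6% to 82.6% on the other arrays, and correlated with its group at 0.963 at the lowest. Low Se non-GD replicate 3 was intermediate within its group in 78.3% of 18541 genes, and low Se GD replicate 2 in 69.0%. On the other arrays this share was 7.4% to 55%, highest in normal Se GD replicate 1. All of low Se non-GD was scanned together with low Se GD replicate 1, so that a scan-blocked difference between these groups rests on that 1 array of low Se GD, and the other low Se GD arrays shared a scan with normal Se GD replicates 1 and 2. Normal Se GD and low Se non-GD had no scan in common. A scan-blocked difference between them runs through low Se GD and rests in part on that same replicate 1. An adenoviral spike-in control spot read 0.87 to 2.37 in normal Se GD, 1.01 to 2.51 in low Se GD and 4.72 to 5.85 in low Se non-GD on the scaled log2 scale. The part of these differences in the results below was not tested.

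Within the low supply, the set held more genes that fell with the disease than rose. In low Se GD, Ralgps2, Blk, Btk, Cd38, Cd72 and Cd79b fell and Cd24a rose relative to low Se non-GD, so that 6 of 31 were lower, 1 was higher and 24 did not pass limma's moderated test at an adjusted p of 0.05. Over all genes tested, 12.2% were lower and 12.8% higher. The median log2 fold change was -0.14 over the 31 genes and 0.08 over all genes. The low Se GD and low Se non-GD arrays did not overlap for 13 genes that were lower (23.4% of all genes) and for 6 that were higher (29.5% of all genes). Without the 2 in-between arrays, 0 of 31 passed, against 1.02% of all genes. Then 5 had an unadjusted p under 0.05, of which 4 were lower and 1 was higher. Shares of all genes at unadjusted p-values were not counted, here or below.

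Within the disease, the normal supply went with higher signals. In normal Se GD, 27 of 31 genes had a positive and 4 a negative log2 fold change against low Se GD, with a median of 0.30 over the 31 genes and 0.00 over all genes. Blk and Bank1 rose, and 0 fell by limma (0.976% and 0.292% of all genes). At an unadjusted p under 0.05, 16 genes were higher and 0 were lower, with no share of all genes counted beside them. The normal Se GD and low Se GD arrays did not overlap for 18 genes that were higher (17.9% of all genes) and for 1 that was lower (11.4% of all genes). Without the 2 in-between arrays 0 of 31 passed, and 0.0% of all genes did, with 9 of the 31 higher at an unadjusted p under 0.05.

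Between the groups that differ in both factors, Fcmr, Pik3ap1, Swap70, Fcrla, Ly86, Pax5, Bach2 and Pou2f2 rose in normal Se GD relative to low Se non-GD, and Cd22 and Cd79b fell. These 8 higher and 2 lower genes stood beside 18.9% higher and 13.4% lower over all genes. The median was 0.19 over the 31 genes and 0.06 over all genes. Normal Se GD and low Se non-GD arrays did not overlap for 14 genes that were higher (28.0% of all genes) and 4 that were lower (21.1% of all genes). Without the 2 in-between arrays Fcmr alone passed, against 11.6% of all genes. The 3 comparisons share arrays in pairs, so each gene's values in the 3 groups are given side by side.

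**Figure D1:**
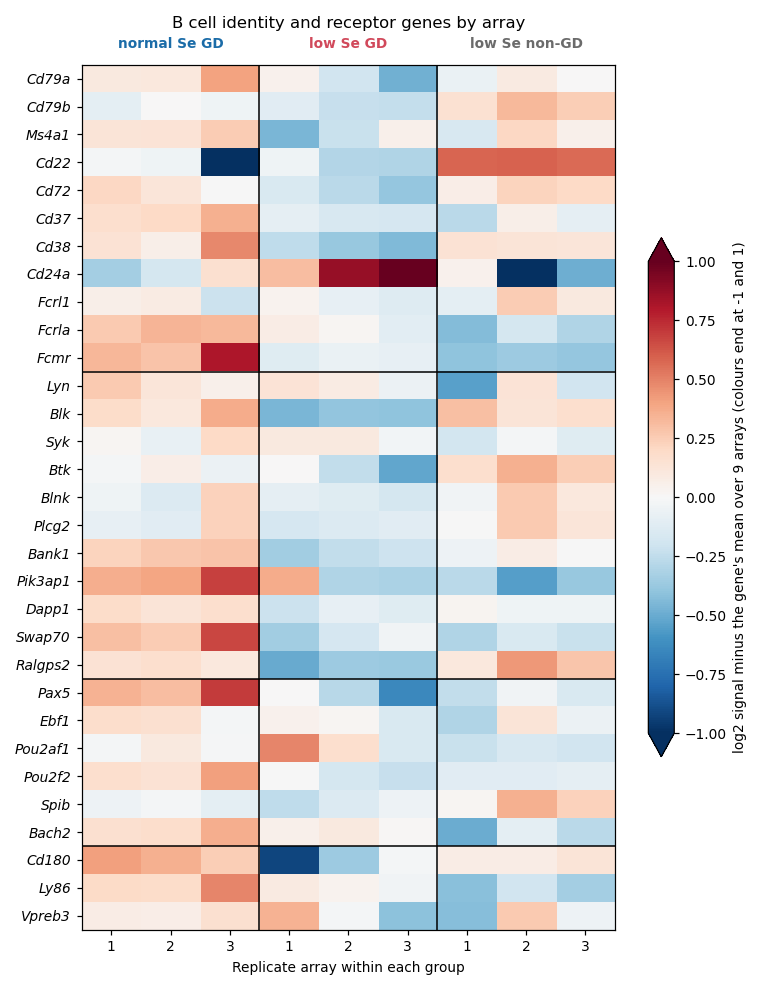
Scaled log2 signal of each of the 31 genes (rows, grouped by role) on each of the 9 arrays (columns: normal Se GD, low Se GD, low Se non-GD), shown as the deviation from the gene's mean over the 9 arrays. The median deviation over the genes was 0.12 to 0.23 on the normal Se GD arrays, -0.16 to -0.04 for low Se GD and -0.10 to 0.09 for low Se non-GD.

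Of 15 genes expressed largely in the B lineage, 0 rose by limma and 4 fell in low Se GD relative to low Se non-GD, with a median of -0.22 and with 1 higher and 6 lower at an unadjusted p under 0.05. Of the 16 that other blood cells also express, 1 rose and 2 fell, with a median of -0.04. Over all genes 12.8% were higher and 12.2% lower in this comparison. The medians in normal Se GD relative to low Se GD were 0.38 for the largely B-lineage genes and 0.25 for the shared ones, and in normal Se GD relative to low Se non-GD they were 0.17 and 0.29. There 3 of the largely B-lineage genes rose and 2 fell, and 5 of the shared genes rose. Over all genes 18.9% were higher and 13.4% lower there. The difference between these sets was not tested.

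Promoter windows of 300 bases, from 250 before to 50 after the RefSeq transcription start (GRCm38.p6), were found for 26 of the 31 genes. Shown 5′ to 3′ are those of the 4 genes that fell in low Se GD relative to low Se non-GD and have a window (Cd79b and Blk, which also fell, have none), of Cd22, and of Fcrla and Fcmr, which had the lowest adjusted p values of the genes higher in normal Se GD than in low Se non-GD. Capitals mark matches on either strand to 1 of 4 motifs. These are the octamer ATGCAAAT, bound by factors such as Pou2f2, an EBF palindrome of TCCC, any 2 bases and GGGA, the ETS core GAGGAA read in SpiB-type sites, and the E-box CAGGTG. The windows lie at chr1:156939577-156939876 (minus strand, Ralgps2), chr4:43454577-43454876 (minus, Cd72), chrX:134583091-134583390 (minus, Btk), chr5:43868559-43868858 (plus, Cd38), chr7:30878979-30879278 (minus, Cd22), chr1:170927534-170927833 (minus, Fcrla) and chr1:130865527-130865826 (plus, Fcmr).
Ralgps2: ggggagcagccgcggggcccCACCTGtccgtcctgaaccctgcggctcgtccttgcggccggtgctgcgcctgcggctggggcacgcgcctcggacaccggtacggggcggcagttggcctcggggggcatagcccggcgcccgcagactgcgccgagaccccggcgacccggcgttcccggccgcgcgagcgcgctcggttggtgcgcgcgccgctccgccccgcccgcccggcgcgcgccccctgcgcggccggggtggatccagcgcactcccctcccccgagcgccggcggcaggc
Cd72: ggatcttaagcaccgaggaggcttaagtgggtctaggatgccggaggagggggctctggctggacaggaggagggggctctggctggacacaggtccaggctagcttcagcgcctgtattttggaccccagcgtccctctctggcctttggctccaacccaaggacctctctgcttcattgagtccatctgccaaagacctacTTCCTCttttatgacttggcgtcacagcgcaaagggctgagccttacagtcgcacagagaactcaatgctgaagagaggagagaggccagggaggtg
Btk: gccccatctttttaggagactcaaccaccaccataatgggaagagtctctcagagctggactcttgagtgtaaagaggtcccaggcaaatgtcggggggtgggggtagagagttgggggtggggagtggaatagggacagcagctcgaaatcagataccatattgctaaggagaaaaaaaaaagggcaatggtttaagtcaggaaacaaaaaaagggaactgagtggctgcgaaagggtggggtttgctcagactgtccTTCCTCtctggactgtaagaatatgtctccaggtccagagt
Cd38: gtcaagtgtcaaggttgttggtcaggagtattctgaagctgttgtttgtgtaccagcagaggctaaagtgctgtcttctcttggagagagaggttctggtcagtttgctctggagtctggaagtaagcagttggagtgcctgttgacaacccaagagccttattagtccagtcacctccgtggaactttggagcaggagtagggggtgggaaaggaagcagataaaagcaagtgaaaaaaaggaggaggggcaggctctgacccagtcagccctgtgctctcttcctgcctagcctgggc
Cd22: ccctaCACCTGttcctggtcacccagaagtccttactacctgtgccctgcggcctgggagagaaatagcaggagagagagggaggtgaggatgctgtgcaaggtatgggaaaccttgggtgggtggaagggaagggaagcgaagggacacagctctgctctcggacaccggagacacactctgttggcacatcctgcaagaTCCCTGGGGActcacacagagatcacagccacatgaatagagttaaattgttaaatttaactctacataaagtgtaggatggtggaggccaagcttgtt
Fcrla: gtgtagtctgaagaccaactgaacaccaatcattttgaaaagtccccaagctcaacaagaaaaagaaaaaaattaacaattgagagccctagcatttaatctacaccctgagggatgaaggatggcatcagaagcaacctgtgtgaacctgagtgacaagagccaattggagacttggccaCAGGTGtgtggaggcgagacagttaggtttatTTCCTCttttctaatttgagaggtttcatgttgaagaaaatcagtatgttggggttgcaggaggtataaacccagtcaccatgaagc
Fcmr: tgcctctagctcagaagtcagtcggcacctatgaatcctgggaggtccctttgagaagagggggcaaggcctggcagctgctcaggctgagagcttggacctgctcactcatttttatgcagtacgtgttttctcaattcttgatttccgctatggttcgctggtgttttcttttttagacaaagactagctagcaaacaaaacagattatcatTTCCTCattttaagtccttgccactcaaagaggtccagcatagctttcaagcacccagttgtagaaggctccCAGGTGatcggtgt

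The EBF palindrome was in 1 of the 26 windows, that of Cd22, where it begins 49 bases before the start, and in 0.904% of 32851 windows of all genes. The octamer was in 2 of 26, those of Vpreb3 and Blnk (7.69%), and in 1.74% of all windows. The ETS core was in 11 of 26 (42.3%) and in 28.3% of all windows, and the E-box in 12 of 26 (46.2%) and in 20.2% of all windows. Of the genes shown, Cd72 and Btk, which fell in low Se GD, carried the ETS core, Ralgps2, which also fell, an E-box, and Cd38, which fell too, none of the 4 motifs. Cd22 carried an E-box beside its EBF palindrome. Fcrla and Fcmr each carried the ETS core and an E-box. A match says only that the letters occur.

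Of the 2 receptor chains, Cd79b fell with the disease and Cd79a passed in no comparison. Cd79b stood at 5.40, 5.49 and 5.45 in normal Se GD, at 5.38, 5.26 and 5.25 in low Se GD and at 5.64, 5.82 and 5.73 in low Se non-GD. Every array of mice with Graves' disease was below every array without it. The log2 fold change was -0.43 (SE 0.09, adjusted p = 0.0119) in low Se GD relative to low Se non-GD, or 0.740-fold, and -0.29 (SE 0.09, adjusted p = 0.0454) in normal Se GD relative to low Se non-GD. The first call held under 13 of 21 alternatives, with a value of -0.20 at the least, and was lost with normexp, quantile normalization, median scaling and the deposited table, and without low Se non-GD replicate 3 or low Se GD replicate 2. The second turned to 0.14 under quantile normalization and in a fit of the authors' deposited table, so its direction depends on the scaling. Cd79a, the partner chain, read -0.05, -0.05 and 0.25 in normal Se GD, -0.11, -0.34 and -0.63 in low Se GD and -0.22, -0.06 and -0.15 in low Se non-GD. Its 3 differences did not pass (adjusted p = 0.2 to 0.383), and its low Se GD arrays overlapped the low Se non-GD ones.

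Cd22, a sialic acid-binding inhibitor of the receptor, had values of 3.11, 3.08 and 2.10 in normal Se GD, 3.08, 2.84 and 2.82 in low Se GD and 3.71, 3.72 and 3.70 in low Se non-GD. All 6 arrays of mice with the disease lay below the 3 without it. The log2 fold change was -0.94 (SE 0.26, adjusted p = 0.0257) in normal Se GD and -0.79 (SE 0.26, adjusted p = 0.0586) in low Se GD, each relative to low Se non-GD. Normal Se GD replicate 3 was below the rest of its group. Without it the spread shrank, and the 2 differences were -0.61 (adjusted p = 0.00322) and -0.79 (adjusted p = 0.00103). The call of normal Se GD held under 12 of 20 alternatives and was lost without any 1 low Se non-GD array. With scan as a block its value was -0.36 and did not pass, between groups that shared no scan. That of low Se GD was then -0.62, which rests on low Se GD replicate 1 alone.

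Cd72 and Cd38 were lowest in low Se GD. Cd72, an inhibitory receptor for class 4 semaphorins, stood at 2.73, 2.64 and 2.52 in normal Se GD, 2.36, 2.25 and 2.13 in low Se GD and 2.59, 2.74 and 2.72 in low Se non-GD. It fell to 0.740 times its low Se non-GD level in low Se GD (log2 fold change -0.43, SE 0.11, adjusted p = 0.0205). This call held under 13 of 21 alternatives and was lost under median scaling, with scan as a block, and without low Se non-GD replicate 2 or 3 or low Se GD replicate 2 or 3. The normal Se GD arrays were all above the low Se GD arrays, by 0.38 (SE 0.11, adjusted p = 0.107). A second probe gave -0.43 (adjusted p = 0.0702) and 0.58 (adjusted p = 0.0803) for these 2 differences. Cd38, an ectoenzyme that consumes NAD and is also made by other blood cells, stood at 1.47, 1.39 and 1.81 in normal Se GD, 1.07, 0.95 and 0.89 in low Se GD and 1.48, 1.46 and 1.45 in low Se non-GD. It fell by 0.49 (SE 0.13, adjusted p = 0.0250) in low Se GD relative to low Se non-GD, and the value in normal Se GD relative to low Se GD was 0.58 (SE 0.13, adjusted p = 0.0678). The fall of Cd38 was called under 12 of 21 alternatives and was lost under median scaling, with the replicate block, and without any 1 low Se non-GD array or low Se GD replicate 2 or 3. For Cd38 the normal Se GD arrays overlapped those of low Se non-GD.

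Cd24a, a small glycoprotein on immature B cells that maturing red cells also carry, was the gene of the set that rose with the disease under low supply. It read 4.40, 4.56 and 4.90 in normal Se GD, 5.04, 5.61 and 5.91 in low Se GD and 4.78, 3.18 and 4.25 in low Se non-GD. The log2 fold change in low Se GD relative to low Se non-GD was 1.45 (SE 0.40, adjusted p = 0.0343), or 2.74-fold, and the 2 groups did not overlap. Low Se non-GD replicate 2 was the lowest array, and without low Se non-GD replicate 2 the value was 1.01 (adjusted p = 0.0636). The call held under 10 of 21 alternatives and was also lost without low Se non-GD replicate 3, without low Se GD replicate 2 or 3, without normal Se GD replicate 1 or 2, and with scan as a block (0.97, adjusted p = 0.261). A list of 20 erythroid markers, 19 of them tested, was read beside Cd24a. Their mean scaled log2 signal was 1.38, 1.39 and 1.57 in normal Se GD, 2.10, 2.42 and 2.63 in low Se GD and 2.34, 0.69 and 1.73 in low Se non-GD, where the array lowest in Cd24a was also the lowest. Their summed signal, in units of each array's 75th percentile, was 355 to 361 in normal Se GD, 429 to 501 in low Se GD and 209 to 595 in low Se non-GD. By limma 3 of the 19 rose and 0 fell in low Se GD relative to low Se non-GD (5 higher and 0 lower at an unadjusted p under 0.05), and Sptb was below background on 1 array. Over all genes 12.8% were higher and 12.2% lower in that comparison. In normal Se GD relative to low Se GD, Cd24a had -0.90 (adjusted p = 0.272), and these groups did not overlap. There the median of the erythroid list was -1.02, with 1 positive and 18 negative values. By limma 0 of the 19 passed, with 10 lower and 0 higher at an unadjusted p under 0.05. The groups did not overlap for 17 that were lower (11.4% of all genes). In normal Se GD relative to low Se non-GD, Cd24a had 0.55 (adjusted p = 0.339). The list had a median of -0.35 there, with 8 positive and 11 negative values. The part of the erythroid markers in the Cd24a result was not tested.

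Fcmr and Fcrla rose in normal Se GD relative to low Se non-GD, with low Se GD in between. Fcmr, the Fc receptor for IgM, stood at 3.96, 3.92 and 4.44 in normal Se GD, 3.51, 3.56 and 3.55 in low Se GD and 3.23, 3.27 and 3.25 in low Se non-GD. The 3 groups did not overlap. Its log2 fold change was 0.86 (SE 0.14, adjusted p = 0.00359) in normal Se GD relative to low Se non-GD, 0.56 (adjusted p = 0.0892) relative to low Se GD, and 0.30 (adjusted p = 0.173) in low Se GD relative to low Se non-GD. The first of these passed under all 20 alternatives run. Fcrla, an intracellular relative of the Fc receptors found in B cells, read 2.32, 2.4 and 2.38 in normal Se GD, 2.13, 2.07 and 1.95 in low Se GD and 1.62, 1.88 and 1.76 in low Se non-GD. Here too no 2 groups overlapped, and the difference between normal Se GD and low Se non-GD was 0.61 (SE 0.10, adjusted p = 0.00355). It missed the threshold under 1 of 20 alternatives, without the 2 in-between arrays.

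The remaining surface molecules passed in no comparison. Ms4a1, which encodes the CD20 antigen, read 4.74, 4.74 and 4.86 in normal Se GD, 4.15, 4.38 and 4.66 in low Se GD and 4.45, 4.81 and 4.66 in low Se non-GD (adjusted p = 0.223 to 0.526). Its normal Se GD arrays lay above those of low Se GD and overlapped those of low Se non-GD. Cd37, a tetraspanin, averaged 4.60 ± 0.10 in normal Se GD, 4.22 ± 0.04 in low Se GD and 4.26 ± 0.17 in low Se non-GD (SD, n = 3 each), with 0.34 (adjusted p = 0.0501) between normal Se GD and low Se non-GD. A second Cd37 probe differed in the first comparison, with -0.44 (adjusted p = 0.0386) in low Se GD relative to low Se non-GD, where the probe used gave -0.04. Fcrl1, an Fc receptor-like activator of B cells, ranged from 0.72 to 1.18 over all 9 arrays with overlapping groups.

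**Figure D2:**
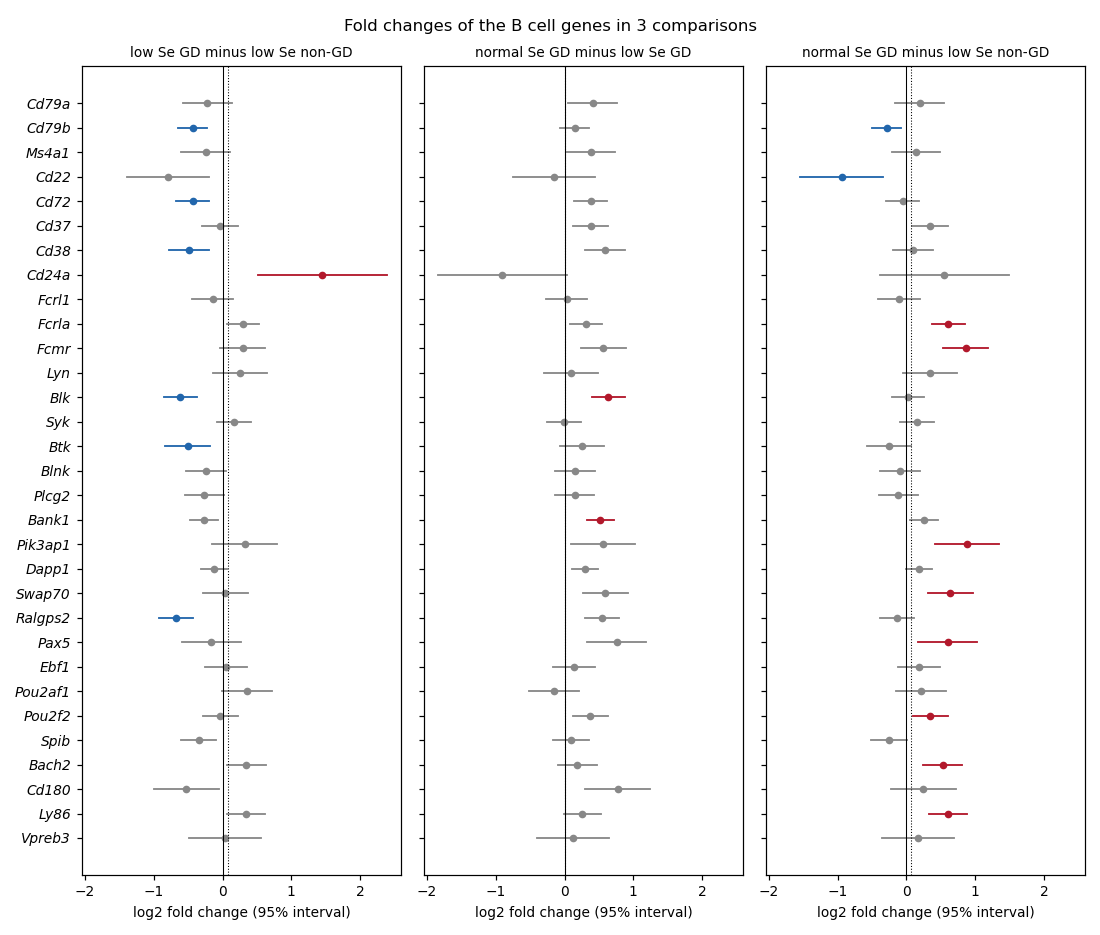
Log2 fold change of each of the 31 genes (rows) in the 3 comparisons (panels), with its 95% confidence interval from the limma fit. In normal Se GD relative to low Se GD 27 genes lie right of 0 and 4 left of it, while in low Se GD relative to low Se non-GD 12 lie right and 19 left.

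Among the kinases, Blk had the clearest order. Blk, a Src-family kinase of B cells, stood at -0.77, -0.84 and -0.58 in normal Se GD, -1.41, -1.34 and -1.35 in low Se GD and -0.65, -0.82 and -0.78 in low Se non-GD. The 3 low Se GD arrays lay below all 6 others, which overlapped each other. The log2 fold change was -0.61 (SE 0.10, adjusted p = 0.00505) in low Se GD relative to low Se non-GD, 0.653-fold, and 0.64 (SE 0.10, adjusted p = 0.0438) in normal Se GD relative to low Se GD, 1.56-fold. These 2 differences share the low Se GD arrays, so a low reading there enters both. Normal Se GD differed from low Se non-GD by 0.02 (95% confidence interval -0.21 to 0.26). The first call held under 18 of 21 alternatives and the second under 5 of 21.

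Btk and Ralgps2 also fell in low Se GD. Btk, the kinase that activates Plcg2, read 0.73, 0.81 and 0.69 in normal Se GD, 0.75, 0.51 and 0.23 in low Se GD and 0.92, 1.1 and 1.0 in low Se non-GD. Its low Se GD arrays lay below those of low Se non-GD by 0.51 (SE 0.14, adjusted p = 0.0324) and overlapped those of normal Se GD. This call held under 10 of 21 alternatives and was lost when any 1 of 6 arrays was left out (each low Se non-GD array, replicate 1 of normal Se GD, and replicate 2 or 3 of low Se GD). Its value was nearest 0 with scan as a block, at -0.25. A second Btk probe gave -0.59 (adjusted p = 0.00542) for the same difference. Ralgps2, an exchange factor for Ral GTPases, stood at 0.70, 0.72 and 0.66 in normal Se GD, 0.05, 0.20 and 0.19 in low Se GD and 0.66, 0.99 and 0.83 in low Se non-GD. It fell by 0.68 (SE 0.11, adjusted p = 0.00405) in low Se GD relative to low Se non-GD, and this call held under 19 of 21 alternatives. The value in normal Se GD relative to low Se GD was 0.55 (SE 0.11, adjusted p = 0.0569), with no overlap between those groups.

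Bank1 was the other gene that rose with the supply. Bank1, a scaffold that joins Lyn to calcium release, read 2.65, 2.70 and 2.72 in normal Se GD, 2.09, 2.19 and 2.23 in low Se GD and 2.38, 2.5 and 2.43 in low Se non-GD. The 3 groups did not overlap, with low Se GD lowest and normal Se GD highest. The log2 fold change in normal Se GD relative to low Se GD was 0.52 (SE 0.09, adjusted p = 0.0441), and a second probe gave 0.51 (adjusted p = 0.0481). The differences of low Se GD and of normal Se GD from low Se non-GD were -0.27 (adjusted p = 0.0543) and 0.25 (adjusted p = 0.0571). For these 2 differences the second probe gave -0.35 (adjusted p = 0.0360) and 0.16 (adjusted p = 0.265). Like the call for Blk, that for Bank1 was lost when any 1 of 8 arrays was left out and was kept without normal Se GD replicate 3.

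Pik3ap1 and Swap70, which tie the receptor to phosphoinositide 3-kinase signals and the cytoskeleton, were highest in normal Se GD. Pik3ap1, the adaptor BCAP, read -3.48, -3.46 and -3.17 in normal Se GD, -3.48, -4.15 and -4.16 in low Se GD and -4.12, -4.40 and -4.23 in low Se non-GD. Every normal Se GD array lay above every low Se non-GD array, by 0.88 (SE 0.20, adjusted p = 0.0131) on average. Its signal is low on these arrays, and with normexp background correction the difference was 0.25 (adjusted p = 0.545). Swap70, which binds phosphoinositides and actin, stood at 3.20, 3.16 and 3.58 in normal Se GD, 2.56, 2.74 and 2.87 in low Se GD and 2.6, 2.75 and 2.68 in low Se non-GD. Its difference between normal Se GD and low Se non-GD was 0.63 (SE 0.14, adjusted p = 0.0117). With scan as a block this was 0.26 and did not pass, between groups that shared no scan.

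The other signalling genes passed in no comparison. The kinases Lyn and Syk, which also act in myeloid cells, had log2 fold changes of 0.25 and 0.16 in low Se GD relative to low Se non-GD and of 0.09 and -0.01 in normal Se GD relative to low Se GD. The adaptor Blnk and the lipase Plcg2 had -0.24 and -0.27 in low Se GD relative to low Se non-GD, and for both genes these 2 groups did not overlap. Dapp1, an adaptor that binds phosphoinositides, averaged -0.30 ± 0.03 in normal Se GD, -0.60 ± 0.07 in low Se GD and -0.48 ± 0.04 in low Se non-GD (SD, n = 3 each), in 3 groups that did not overlap.

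**Figure D3:**
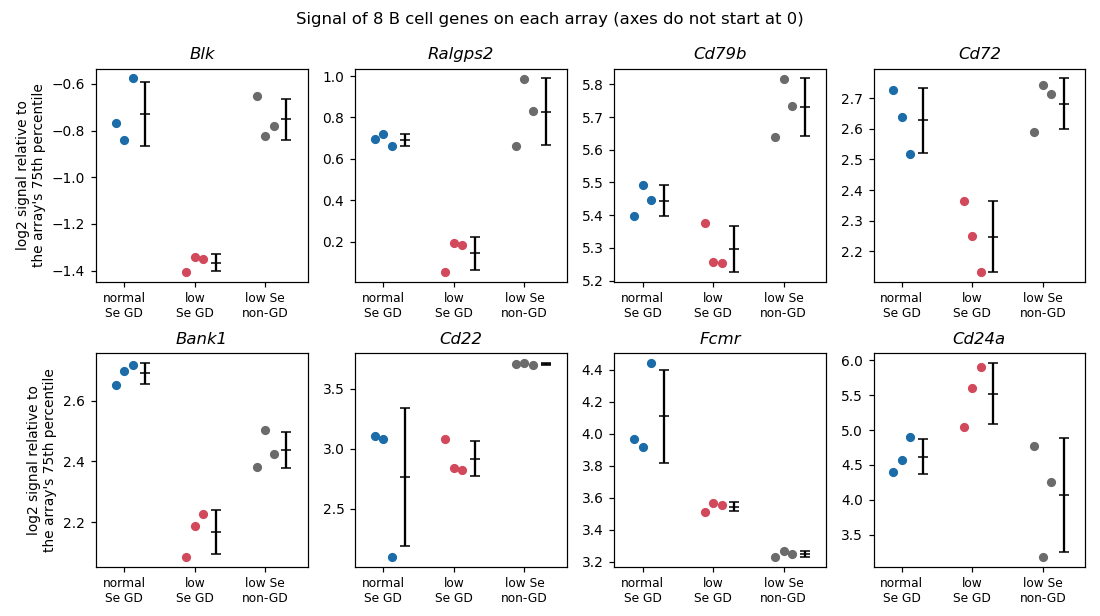
Scaled log2 signal on each array for 8 of the genes (Blk, Ralgps2, Cd79b, Cd72, Bank1, Cd22, Fcmr and Cd24a), with 1 panel per gene, groups in the order normal Se GD, low Se GD, low Se non-GD, and the group mean with its SD (n = 3) beside the points. The 3 low Se GD points of Blk sit between -1.41 and -1.34, below the other 6, and the 3 low Se non-GD points of Cd22 sit between 3.70 and 3.72, above the other 6.

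By limma, 0 of the 6 transcription factors and coactivators passed with the probes used in low Se GD relative to low Se non-GD. The same held in normal Se GD relative to low Se GD. At an unadjusted p under 0.05, the first of these comparisons had 1 higher and 1 lower and the second 2 higher. Pax5, Bach2 and Pou2f2 rose in normal Se GD relative to low Se non-GD. Pax5, which commits cells to the B lineage, stood at -0.34, -0.37 and 0.02 in normal Se GD, -0.68, -0.96 and -1.33 in low Se GD and -0.93, -0.71 and -0.84 in low Se non-GD. Its normal Se GD arrays lay above all 6 low Se arrays. The difference from low Se non-GD was 0.60 (SE 0.18, adjusted p = 0.0401) and that from low Se GD 0.76 (SE 0.18, adjusted p = 0.0820). The first of these held under 8 of 20 alternatives. A second Pax5 probe gave 0.89 (adjusted p = 0.00987) and 0.53 (adjusted p = 0.169) for the 2 differences.

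Bach2, a repressor that holds back plasma cell differentiation, read 0.07, 0.09 and 0.28 in normal Se GD, -0.04, 0.01 and -0.08 in low Se GD and -0.59, -0.19 and -0.36 in low Se non-GD. The groups did not overlap, and normal Se GD was above low Se non-GD by 0.52 (SE 0.12, adjusted p = 0.0141). The call was lost with scan as a block, under median scaling, without low Se non-GD replicate 3 and without the 2 in-between arrays. A second probe, well above background on 5 of 9 arrays, gave 1.78 (adjusted p = 0.00142). In low Se GD relative to low Se non-GD that second probe gave 1.11 (adjusted p = 0.0112), where the probe used gave 0.34 (adjusted p = 0.0786). Pou2f2, the octamer-binding factor Oct2, stood at 0.53, 0.51 and 0.78 in normal Se GD, 0.36, 0.19 and 0.14 in low Se GD and 0.26, 0.25 and 0.28 in low Se non-GD. Its difference between normal Se GD and low Se non-GD was 0.34 (SE 0.11, adjusted p = 0.0457) with the probe used and 0.61 (adjusted p = 0.00382) with the second. The call with the probe used held under 7 of 20 alternatives. In normal Se GD relative to low Se GD the second Pou2f2 probe gave 0.55 (adjusted p = 0.0461) and the probe used 0.38 (adjusted p = 0.120).

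Ebf1, which acts upstream of Pax5, passed in no comparison. It read 0.18, 0.16 and -0.02 in normal Se GD, 0.04, 0.01 and -0.15 in low Se GD and -0.31, 0.12 and -0.06 in low Se non-GD (adjusted p = 0.327 to 0.828), and all 3 groups overlapped. The confidence interval in normal Se GD relative to low Se GD was -0.17 to 0.44. Pou2af1, the coactivator of the octamer factors, averaged 4.12 ± 0.06 in normal Se GD, 4.27 ± 0.32 in low Se GD and 3.91 ± 0.03 in low Se non-GD. Spib, an ETS factor shared with plasmacytoid dendritic cells, averaged 4.56 ± 0.04, 4.47 ± 0.10 and 4.82 ± 0.17 in the same order of groups (SD, n = 3 each). For Spib the low Se GD arrays lay below those of low Se non-GD (-0.35, adjusted p = 0.0571).

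Cd180 and Ly86 encode RP105 and MD-1, which form a complex related to Toll-like receptors on B cells and on other blood cells. In low Se GD relative to low Se non-GD, Cd180 had -0.52 (adjusted p = 0.102) and Ly86 0.34 (adjusted p = 0.0684), and neither passed. Ly86 stood at 2.94, 2.94 and 3.24 in normal Se GD, 2.84, 2.79 and 2.72 in low Se GD and 2.33, 2.56 and 2.41 in low Se non-GD. The groups did not overlap, and it rose by 0.60 (SE 0.12, adjusted p = 0.00686) in normal Se GD relative to low Se non-GD. Cd180 read -2.25, -2.30 and -2.41 in normal Se GD, -3.57, -3.02 and -2.68 in low Se GD and -2.58, -2.59 and -2.53 in low Se non-GD. The 3 low Se GD values of Cd180 were the lowest, and no difference passed (adjusted p = 0.101 to 0.399). Vpreb3, a chaperone of the receptor light chain in developing B cells, ranged from 0.59 to 1.37 over the 9 arrays with overlapping groups.

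Of the 31 genes, 8 had 2 probes (Cd72, Cd37, Btk, Bank1, Dapp1, Pax5, Pou2f2 and Bach2), and the values given for second probes come from a fit over all probes, with p-values adjusted over probes. In normal Se GD relative to low Se GD the probes of all 8 genes had 1 sign. They had both signs for Pax5 and Pou2f2 in low Se GD relative to low Se non-GD, and for Cd72 and Dapp1 in normal Se GD relative to low Se non-GD. Over the 39 probes, 2 were higher and 9 lower in low Se GD relative to low Se non-GD. By limma 5 were higher and 0 lower in normal Se GD relative to low Se GD, and 12 were higher and 2 lower in normal Se GD relative to low Se non-GD. The share of all probes called in the fit over all probes was not counted.

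Other genes of the receptor pathway moved in both directions with the disease under low supply. Of 30 genes, 5 rose and 5 fell in low Se GD relative to low Se non-GD, with a median of 0.01. Beside this list and those below, 12.8% of all genes were higher and 12.2% lower in that comparison. These shares were 0.976% and 0.292% in normal Se GD relative to low Se GD, and 18.9% and 13.4% relative to low Se non-GD. Those that fell included the complement receptor Cr2 (-0.77, adjusted p = 0.0112), the phosphatase Ptprc, known as CD45 (-0.77, adjusted p = 0.00484), and Ikbkb, a kinase of the NF-kB pathway (-0.80, adjusted p = 0.0128). Those that rose included the tetraspanin Cd81 (0.72, adjusted p = 0.00230), Akt1 (0.60, adjusted p = 0.00977) and Pik3r1, a regulatory subunit of phosphoinositide 3-kinase (0.90, adjusted p = 0.0203). By limma, 0 of the 30 passed in normal Se GD relative to low Se GD, with 11 higher and 0 lower at an unadjusted p under 0.05, and relative to low Se non-GD 9 rose and 0 fell (11 higher and 2 lower unadjusted). Without the 2 in-between arrays 0 of the 30 passed in the first comparison, and 3 rose in normal Se GD relative to low Se non-GD.

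Of 17 inhibitors of receptor signalling, 5 rose and 1 fell in low Se GD relative to low Se non-GD (12.8% and 12.2% of all genes). Cbl, a ubiquitin ligase, rose by 0.71 (adjusted p = 0.00175) there and by 0.64 (adjusted p = 0.0369) in normal Se GD relative to low Se GD. The inhibitory IgG receptor Fcgr2b, which macrophages also carry, rose by 0.52 (adjusted p = 0.0353) in low Se GD relative to low Se non-GD. The phosphatase Ptpn6, known as SHP-1, fell by 0.35 (adjusted p = 0.0474) in the same comparison. Pag1, 1 of the 5 that rose there, had a probe that cleared background in 0 of 3 samples of low Se non-GD. Its value turned negative with normexp. Relative to low Se non-GD, 5 rose in normal Se GD and 0 fell by limma (8 higher and 0 lower unadjusted), Cbl among them by 1.35 (adjusted p = 0.000192). Of 20 other B lineage regulators tested, 1 fell in low Se GD relative to low Se non-GD, the transcription factor Sox4 (-1.52, adjusted p = 0.00845), and 0 rose (2 unadjusted). Klf3 of the same list fell in normal Se GD relative to low Se GD by 0.55 (adjusted p = 0.0427) and 0 rose (5 unadjusted), and relative to low Se non-GD 3 rose, among them Ets1 (0.80, adjusted p = 0.00424), and 3 fell.

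Of 12 marginal zone genes, 4 rose and 5 fell in low Se GD relative to low Se non-GD (12.8% and 12.2% of all genes). Among those that fell was Myof, whose probe cleared background in 0 of 3 samples of each group with the disease. Cd1d1, which presents lipids (-0.49, adjusted p = 0.00586), and S1pr3, a sphingosine phosphate receptor (-0.46, adjusted p = 0.0190), fell. Cd9 (0.67, adjusted p = 0.00220) and Plac8 (0.87, adjusted p = 0.00220) rose, Plac8 at -0.32 when its probes were averaged. S1pr3 rose in normal Se GD relative to low Se GD by 0.80 (adjusted p = 0.0369), and was the 1 gene of the 12 to pass there. Of 9 follicular genes, 1 fell in low Se GD relative to low Se non-GD and 1 rose in normal Se GD relative to low Se GD, in each case the IgE receptor Fcer2a (-0.96, adjusted p = 0.00172, and 0.94, adjusted p = 0.0369). These 2 Fcer2a values share the low Se GD arrays.

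Of 15 plasma cell genes, 6 rose and 0 fell in low Se GD relative to low Se non-GD by limma (7 higher and 1 lower unadjusted), with a median of 0.51, and 9 rose and 0 fell in normal Se GD relative to low Se non-GD (9 higher and 1 lower unadjusted), with a median of 0.72. Xbp1, a transcription factor of secretory cells, rose by 0.74 (adjusted p = 0.00722) and 1.11 (adjusted p = 0.00134) in these comparisons, and the surface proteoglycan Sdc1 by 0.79 (adjusted p = 0.0338) and 1.19 (adjusted p = 0.00540). Slamf7 and Sdf2l1 rose in normal Se GD relative to low Se GD. Of 9 immature and transitional B genes, 4 rose and 1, Sox4, fell in low Se GD relative to low Se non-GD. Among those that rose were Myb (0.83, adjusted p = 0.00389), which erythroid precursors also express, and Igll1, whose probe cleared background in 0 of 3 samples of low Se non-GD. Of 12 germinal centre genes 1 rose, Mybl1, and 1 fell in the same comparison, where 12.8% of all genes were higher and 12.2% lower. The Mybl1 probe cleared background in 0 of 3 samples of low Se non-GD, and its value turned negative with normexp. Without the 2 in-between arrays 0 genes of these subset lists passed in low Se GD relative to low Se non-GD.

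**Figure D4:**
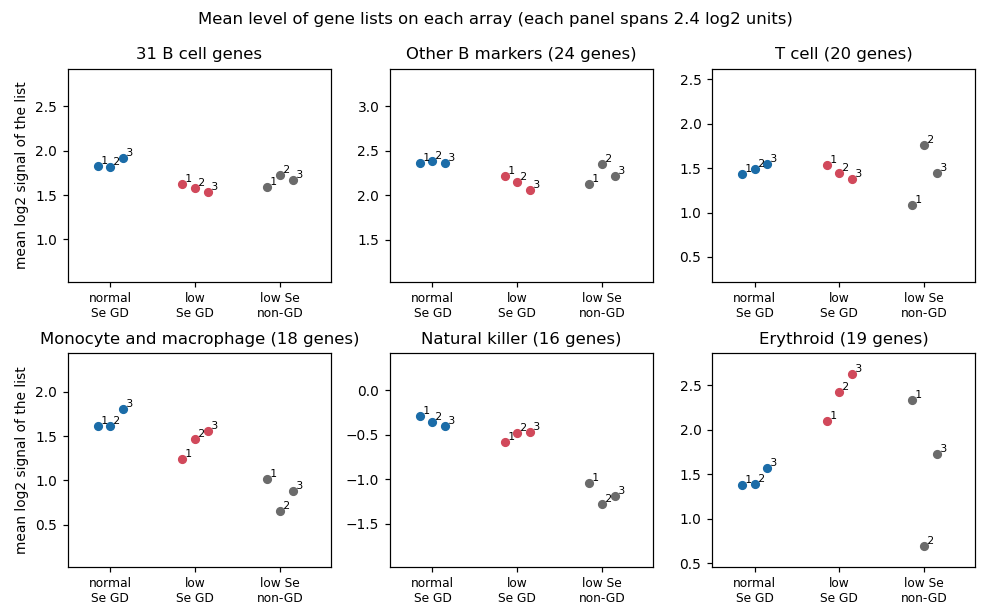
Mean scaled log2 signal of the 31 genes and of marker lists of spleen cell types on each array, with 1 panel per list, groups in the order normal Se GD, low Se GD, low Se non-GD, and an equal span on every vertical axis. The 31 genes read 1.82 to 1.91, 1.53 to 1.62 and 1.59 to 1.73 in these groups, and the monocyte and macrophage list 1.61 to 1.80, 1.24 to 1.56 and 0.66 to 1.02.

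Lists of markers of other cells, or of B cells beyond the 31 genes, were read beside the 12.8% of all genes that were higher and 12.2% that were lower in low Se GD relative to low Se non-GD. The mean scaled log2 signal of 24 other B cell markers was 2.36 to 2.39 in normal Se GD, 2.06 to 2.22 in low Se GD and 2.12 to 2.35 in low Se non-GD, and their summed signal 249.99 to 292, 204 to 241 and 219 to 265 in the same order of groups. Of these 24, 2 rose and 3 fell in low Se GD relative to low Se non-GD, 2 rose in normal Se GD relative to low Se GD, and 3 rose in normal Se GD relative to low Se non-GD. Of 18 monocyte and macrophage markers tested, 9 rose and 1 fell in low Se GD relative to low Se non-GD, and 14 rose and 1 fell in normal Se GD relative to low Se non-GD. Their summed signal was 153 to 179 in normal Se GD, 123 to 152 in low Se GD and 103 to 104 in low Se non-GD, and Cd163 was below background on 5 of 9 arrays. Ly86, Pik3ap1, Swap70, Bach2 and Pou2f2, which rose in normal Se GD relative to low Se non-GD, are also expressed in other blood cells, and the part of those cells in the results was not tested.

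Of 16 natural killer markers, 9 rose and 0 fell in low Se GD relative to low Se non-GD by limma (11 and 0 unadjusted). Of 15 dendritic cell markers 6 rose and 0 fell (7 and 0 unadjusted), of 15 neutrophil markers 3 rose and 1 fell, and of 20 T cell markers 1 rose and 0 fell (2 and 2 unadjusted). The summed signal of the natural killer list ran the other way, at 48.6 to 72.3 in normal Se GD, 73.0 to 80.8 in low Se GD and 84.0 to 93.8 in low Se non-GD. That of the dendritic cell list was 116 to 218 in normal Se GD, 179 to 264 in low Se GD and 294 to 309.9 in low Se non-GD. Bright probes weigh most in such sums. The mean scaled log2 signal of the natural killer list ran the same way as the calls. It was -0.40 to -0.29 in normal Se GD, -0.59 to -0.46 in low Se GD and -1.27 to -1.05 in low Se non-GD. For the dendritic cell list this mean was 0.98 to 1.02, 0.70 to 0.71 and 0.43 to 0.49 in the same order of groups. For the neutrophil and T cell lists the summed signals of the groups overlapped. Without the 2 in-between arrays 0 genes of any cell type list passed in low Se GD relative to low Se non-GD. In normal Se GD relative to low Se non-GD, 6 macrophage, 6 natural killer and 6 dendritic cell markers were then higher. Of 14 markers of stroma and fat 5 rose and 2 fell in low Se GD relative to low Se non-GD with all arrays. Their summed signal was 44.7 to 46.5 in normal Se GD, 46.1 to 94.2 in low Se GD and 44.4 to 46.4 in low Se non-GD. Plin1, 1 of the 5 that rose, was below background on every low Se non-GD array. The fat gene Fabp4, also 1 of the 5, was higher by 3.91 (adjusted p = 0.0223) in low Se GD relative to low Se non-GD. The part of fat in those samples was not tested.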

How the data were processed

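Spleen RNA of 9 samples was measured on 1-colour Agilent mouse arrays, per the labels' protocols. The scanner files as deposited give each spot an intensity, made with Agilent Feature Extraction and background-subtracted with no scaling between arrays, per the file headers, and other values there are 0 or 1 marks per spot. The authors' deposited table of log2 values, with no processing stated in those sources, served as an alternative. Its 9 columns share a median of 6.43, and each of the 3 columns of low Se non-GD correlated most with a different array of its group.

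Spots marked as outliers were dropped, spots of a probe averaged, and log2 processed signal taken minus the array's 75th percentile over non-control spots. Per gene the probe with the highest mean was used, and genes well above background on at least 3 of 9 arrays were tested (26325, with 6078 too dim and 48 with a marked spot). All 9 arrays entered 1 limma fit (R 4.3.3, limma 3.58.1), 2-sided, with Benjamini-Hochberg adjustment over all genes and a threshold of 0.05. The fit was tested on simulated data with independent arrays and no scan effect, which does not bear on the array differences described above. Precision is limited by 3 arrays a group. Alternatives covered background correction, scaling, filter, probe choice, groups in the fit, scan, replicate block and left-out arrays. The normexp alternative, with an offset of 50, used the median signal, the raw spot signal in the files used here. Groups and replicate numbers came from the labels. Same-numbered samples did not deviate together, and the main fit used no pairing. With the replicate numbers of low Se non-GD in doubt, this does not show that samples were unpaired.

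The members and all lists were chosen with earlier results of these data known. All members are accounted for. Values on every array are given for those that passed in any comparison, for Cd180 and for Cd79a, Cd79b, Ms4a1, Cd22, Pax5 and Ebf1. Other genes were named from those of each list that passed, did not overlap between groups and changed most, up to 5 per direction in the first comparison and 3 in the others.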

Additional observations from a re-analysis of the deposited data

How the results depend on the processing

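In low Se GD relative to low Se non-GD, where 7 of the 31 genes passed, the count was 3 under median scaling (1 higher, 2 lower), 8 with normexp (2 higher, 6 lower), 12 with genes above background on all arrays, 11 with scan as a block, 1 within 1 scan and 0 without the 2 in-between arrays. The share of all genes called moved as well, with 24.9% as reported and 23.7%, 20.9%, 31.3%, 28.3%, 3.57% and 1.02% under these 6 settings in turn. Both scan settings rest on 1 low Se GD array, assumed to vary like the others. It was 2 to 15 without 1 array, with 2 without low Se non-GD replicate 3 or low Se GD replicate 2, 3 without low Se non-GD replicate 2, and 15 without normal Se GD replicate 3 (41.0% of all genes). The members' median moved to -0.0388 under median scaling, -0.22 with probes averaged and -0.0509 with scan as a block or within 1 scan. The median of all genes moved to -0.16 with normexp and 0.18 under median scaling. In normal Se GD relative to low Se GD, where 2 passed, 0 passed with normexp, quantile normalization, median scaling, the authors' deposited table, no filter, the 2 groups alone or without the 2 in-between arrays. There 7 passed with genes above background on all arrays (6.95% of all genes), 8 with scan as a block (6.51%) and 8 within 1 scan (10.6%). Without 1 array it was 0 to 5, with 5 without normal Se GD replicate 3 (4.09% of all genes) and 0 without any other. The median moved to 0.38 with quantile normalization, the deposited table or probes averaged. Of 39 probes 5 passed there, and 0 with no filter. In normal Se GD relative to low Se non-GD, where 10 passed, 5 did under median scaling (27.9% of all genes) and 1 without the 2 in-between arrays (11.6%). Without 1 array it was 5 to 10, with 5 without low Se non-GD replicate 3 (20.6%). Quantile normalization and the deposited table gave 10 higher and 0 lower, with a median of 0.30. With the replicate number as a block, 4, 0 and 7 members passed in the 3 comparisons; correlations of same-numbered samples ran from -0.213 to 0.099. Cd79b turned to 0.14 in normal Se GD relative to low Se non-GD with quantile normalization and with the deposited table. Among other genes, normexp turned Pag1 (-0.42), Igll1 (-0.42), Vpreb1 (-0.19), Mybl1 (-0.25), Fscn1 (-0.0416) and Klre1 (-0.0818) in low Se GD relative to low Se non-GD and Igll1 (-0.0262) in normal Se GD relative to low Se non-GD. Averaged probes turned Plac8 (-0.32) in the first of these and Runx1 (0.43) in the second. The cause was not tested. Genes with dim probes, such as Pik3ap1, are limited by signal over background.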
